A study of Mus musculus with 54 samples.

Results

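Atrial and natriuretic peptide genes in the hearts of *Mrps12* mice on a high-fat diet (HFD) are described here, as 10 of the 54356 genes in the deposited heart table. They are *Nppa*, *Nppb*, *Sln*, *Myl4*, *Myl7*, *Bmp10*, *Dkk3*, *Mybphl*, *Sbk2* and *Sbk3*, found by gene name, and they were picked because they vary strongly between hearts. Their levels and their spread between hearts are therefore given as a description, with no test. *Mrps12* encodes a protein of the small mitochondrial ribosome subunit, and the mice were *Mrps12+/+*, homozygous for an error-prone allele (*Mrps12ep/ep*) or homozygous for a hyper-accurate allele (*Mrps12ha/ha*). All mice of the 3 genotypes were male, of the C57BL/6 strain and 20 weeks old, and all had eaten an HFD with 42% of its energy as fat, the *Mrps12+/+* controls included. Both alleles were carried in every tissue. RNA was taken from the whole heart and the whole liver of 3 mice of each genotype, and the same genes in the liver serve as a contrast.

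The adult heart makes its natriuretic peptides as hormones that lower blood volume and pressure. *Nppa* encodes atrial natriuretic peptide, which healthy atria release in large amounts and which healthy ventricles make little of, and *Nppb* encodes brain natriuretic peptide, which both chambers make and which rises with stretch of the wall. Atrial muscle is also set apart from ventricular muscle by its own myosin light chains, by sarcolipin in place of much of the phospholamban that restrains the calcium pump, and by secreted factors such as BMP10. Genes of this kind are used as markers of atrial muscle, and several of them are also made in the embryonic ventricle.

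The DNA just before the start of a gene is shown for 4 of them, because each holds a GATA site and together they come from the peptide, contractile and secreted genes. The sequences are the 250 bases before the RefSeq start on the gene's strand in GRCm38.p6, at chr4:148000472-148000721 (plus strand) for *Nppa*, chr11:5898783-5899032 (minus strand) for *Myl7*, chr3:108364661-108364910 (plus strand) for *Mybphl* and chr6:87428744-87428993 (plus strand) for *Bmp10*. Capitals mark any match, on either strand, to a GATA site (AGATAA or its variant AGATAG, and likewise TGATAA or its variant TGATAG), a T-box half-site (AGGTGT), an Nkx2-5 core (AAGTG), a CArG box or a TATA box (TATAAA).
Nppa: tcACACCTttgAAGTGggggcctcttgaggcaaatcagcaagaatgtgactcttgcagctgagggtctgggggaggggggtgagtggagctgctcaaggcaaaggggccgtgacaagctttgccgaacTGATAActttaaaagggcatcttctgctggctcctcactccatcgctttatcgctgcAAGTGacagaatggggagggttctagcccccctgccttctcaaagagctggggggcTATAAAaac
Myl7: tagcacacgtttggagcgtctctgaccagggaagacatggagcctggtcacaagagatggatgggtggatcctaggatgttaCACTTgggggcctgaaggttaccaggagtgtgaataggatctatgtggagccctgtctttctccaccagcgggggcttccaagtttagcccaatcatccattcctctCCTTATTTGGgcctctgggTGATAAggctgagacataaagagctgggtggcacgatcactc
Mybphl: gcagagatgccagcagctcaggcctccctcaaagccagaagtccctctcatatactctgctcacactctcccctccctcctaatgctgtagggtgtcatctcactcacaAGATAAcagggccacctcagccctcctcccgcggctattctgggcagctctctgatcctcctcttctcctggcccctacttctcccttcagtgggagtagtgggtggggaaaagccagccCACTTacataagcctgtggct
Bmp10: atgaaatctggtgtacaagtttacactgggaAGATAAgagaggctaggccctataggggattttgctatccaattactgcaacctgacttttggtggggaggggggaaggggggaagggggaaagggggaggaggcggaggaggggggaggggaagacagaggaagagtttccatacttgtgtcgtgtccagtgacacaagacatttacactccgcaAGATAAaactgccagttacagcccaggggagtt

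A window was found for 8 of the 10 genes, those other than *Sln* and *Dkk3*, and for *Nppb* and *Sbk3* the RefSeq start lies inside the GENCODE transcript, so that their windows overlap it. GATA sites, the letters bound by GATA4 and GATA6, stood in 6 of these 8 windows, against 26.5% of the 32851 windows of all genes. *Bmp10* and *Nppb* held 2 GATA sites each, and *Nppa*, *Myl7*, *Mybphl* and *Sbk2* held 1 each. In *Myl7* the GATA site began 42 bases before the start, and in *Bmp10* the nearer of its 2 began 33 bases before the start. The Nkx2-5 core stood in 4 of the 8 windows and in 40.7% of all windows. The CArG box, bound by serum response factor, stood only in the window of *Myl7* among the 8, 61 bases before its start, and in 1.47% of all windows. A T-box half-site stood in the window of *Nppa* alone among the 8, and in 11.8% of all windows. TATAAA stood in the windows of *Nppa* and *Nppb* and in 12.4% of all windows. No match to a MEF2 site or to the NR2F half-site (AGGTCA) stood in the 8 windows, against 2.92% and 14.0% of all windows, and the window of *Sbk3* held none of the 7 motifs searched. A match describes letters in a window and is neither a bound site nor a cause.

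The values are normalized counts, which the authors made by scaling the counts of each mouse within a tissue, and 1 value is deposited for each mouse and tissue. The smallest steps of the values gave the number of reads behind them. Hearts held 11203120 to 51499887 reads on genes (median 37102958), the shallowest being *Mrps12ha/ha* mouse 2, and livers held 21238081 to 81490621. In the hearts 1 read was worth 0.580 to 3.02 normalized counts, so that values under 10 rest on a handful of reads. Hearts differed in ways that genotype does not explain. *Mrps12ha/ha* mouse 2 stood apart from the other 2 *Mrps12ha/ha* hearts, and without it the number of genes that passed the test between *Mrps12ha/ha* and *Mrps12+/+* hearts went from 5 to 4320, so that comparisons with *Mrps12ha/ha* hearts are given below with and without this heart. Heart muscle was present in all 9 samples, as *Myh6* (the main adult myosin heavy chain of the mouse heart) lay between 994852 and 2130354. The lung markers *Sftpb* and *Scgb1a1* were at 0 in all 9 hearts. The full list of 4 lung markers summed to 0.9 to 3.4 in *Mrps12+/+*, 1 to 2.7 in *Mrps12ep/ep* and 0 in *Mrps12ha/ha* hearts.

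*Nppa* spanned a 118-fold range over the 9 hearts. It measured 7983, 78294 and 54983 normalized counts in *Mrps12+/+* mice 1, 2 and 3, then 1593, 188122 and 47558 in *Mrps12ep/ep* mice 1, 2 and 3, and 4582, 4180 and 3885 in *Mrps12ha/ha* mice 1, 2 and 3. Within both *Mrps12+/+* and *Mrps12ep/ep* there were thus 1 low and 2 high hearts, while the 3 *Mrps12ha/ha* hearts lay close together and below every *Mrps12+/+* heart. The gene lies on chromosome 4 at 148000722 to 148002079 (GRCm38, plus strand).

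*Nppb* lies on the same chromosome and strand, with 13516 bases between the 2 genes, at 147985788 to 147987205. Its values were 7885, 2782 and 1275 in the *Mrps12+/+* hearts, 5096, 4976 and 3246 in the *Mrps12ep/ep* hearts, and 3582, 2875 and 954 in the *Mrps12ha/ha* hearts, in the order of the mice. Its range was 8.26-fold, the smallest of the 10, and its order over the hearts was another than that of its neighbour. *Mrps12+/+* mouse 1 held the most *Nppb* and was low in *Nppa*, and *Mrps12+/+* mouse 3 had the second lowest *Nppb* and the third highest *Nppa*. The ratio of *Nppa* to *Nppb* ran from 0.313 in *Mrps12ep/ep* mouse 1 to 43.1 in *Mrps12+/+* mouse 3, with a median of 4.07.

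The atrial contractile and calcium genes were low in some hearts, down to 3 reads for *Sln* and 4 for *Mybphl*, and among the abundant mRNAs in others. *Myl7* encodes the atrial regulatory light chain of myosin (chromosome 11, 5896637 to 5898782, minus strand). Its normalized counts were 28.4, 33987 and 25002 in the *Mrps12+/+* hearts, 21.8, 51455 and 17872 in the *Mrps12ep/ep* hearts, and 189.6, 132.9 and 1990 in the *Mrps12ha/ha* hearts. The highest was 2360 times the lowest, with a 95% counting interval of 1559 to 3768. No *Mrps12ha/ha* heart reached the level of the 4 high hearts, and all 3 lay above the low heart of each other genotype.

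*Myl4*, the atrial essential light chain (chromosome 11, 104550663 to 104595753, plus strand), gave 84.4, 42113 and 30417 in *Mrps12+/+*, 63.4, 77059 and 22756 in *Mrps12ep/ep*, and 386.6, 190.3 and 4062 in *Mrps12ha/ha*. *Sln* encodes sarcolipin, the small inhibitor of the sarcoplasmic calcium pump (chromosome 9, 53850164 to 53854560, plus strand). Its values were 4.3, 8337 and 7126 in *Mrps12+/+*, 3.0, 16198 and 4761 in *Mrps12ep/ep*, and 42.3, 48.3 and 343.7 in *Mrps12ha/ha*. Both genes followed the order of *Myl7* in the 4 high hearts. The 5399-fold range of *Sln* rests on 3 reads in its lowest heart and has a counting interval of 1865 to 26432.

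*Mybphl* encodes a relative of myosin binding protein H found in atrial muscle and in the conduction system (chromosome 3, 108364911 to 108380057, plus strand). It measured 6.0, 5797 and 4356 in the *Mrps12+/+* hearts, 5.0, 9980 and 2843 in the *Mrps12ep/ep* hearts, and 20.2, 12.1 and 150.8 in the *Mrps12ha/ha* hearts. Its 1996-fold range (counting interval 863 to 6206) rests on 5 reads in the lowest heart. The same 4 hearts stood above the other 5 by a wide gap, the fourth being 18.9 times the fifth, the widest of the 10 genes.

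Of the secreted factors, *Bmp10* was the most uneven. BMP10 is a ligand made in the adult heart mostly by the right atrium, and it acts on vessels through the receptor ALK1. The gene (chromosome 6, 87428994 to 87437677, plus strand) had 7.8, 9.5 and 1052 normalized counts in the *Mrps12+/+* hearts, 1.0, 45047 and 4.5 in the *Mrps12ep/ep* hearts, and 14.7, 0 and 0 in the *Mrps12ha/ha* hearts. Only *Mrps12+/+* mouse 3 and *Mrps12ep/ep* mouse 2 exceeded 1000, and *Mrps12+/+* mouse 2 and *Mrps12ep/ep* mouse 3, which were high for the contractile genes, were not among them. The highest heart was at least 4972-fold higher than *Mrps12ha/ha* mouse 2, taken at its floor of 3 reads. The low values are a few reads each, and their order is not resolved at this depth.

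*Dkk3*, a secreted member of the Dickkopf family (chromosome 7, 112116017 to 112159057, minus strand), gave 111.9, 5867 and 4915 in *Mrps12+/+*, 77.3, 17521 and 2967 in *Mrps12ep/ep*, and 75.5, 93.6 and 535.3 in *Mrps12ha/ha*. It followed the contractile genes more closely than *Bmp10* did, but its lowest heart was *Mrps12ha/ha* mouse 1, at about the level of *Mrps12ep/ep* mouse 1. Its range was 232-fold.

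*Sbk2* and *Sbk3* encode SH3-binding kinases whose roles in the heart are little known. They are neighbours on the minus strand of chromosome 7, at 4940512 to 4964406 and 4965260 to 4971168, with 853 bases between them. *Sbk2* measured 226.5, 3234 and 2772 in *Mrps12+/+*, 173.4, 5137 and 2046 in *Mrps12ep/ep*, and 285.3, 434.9 and 243.4 in *Mrps12ha/ha*. *Sbk3* measured 166.2, 8411 and 5846 in the same *Mrps12+/+* hearts, 79.2, 14658 and 4175 in *Mrps12ep/ep*, and 493.3, 697.6 and 457.1 in *Mrps12ha/ha*. The pair had the same 4 high hearts. The ratio of *Sbk3* to *Sbk2* was 2.04 to 2.85 in those hearts, 1.60 to 1.88 in the *Mrps12ha/ha* hearts, and 0.734 and 0.457 in *Mrps12+/+* mouse 1 and *Mrps12ep/ep* mouse 1.

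**Figure D1:**
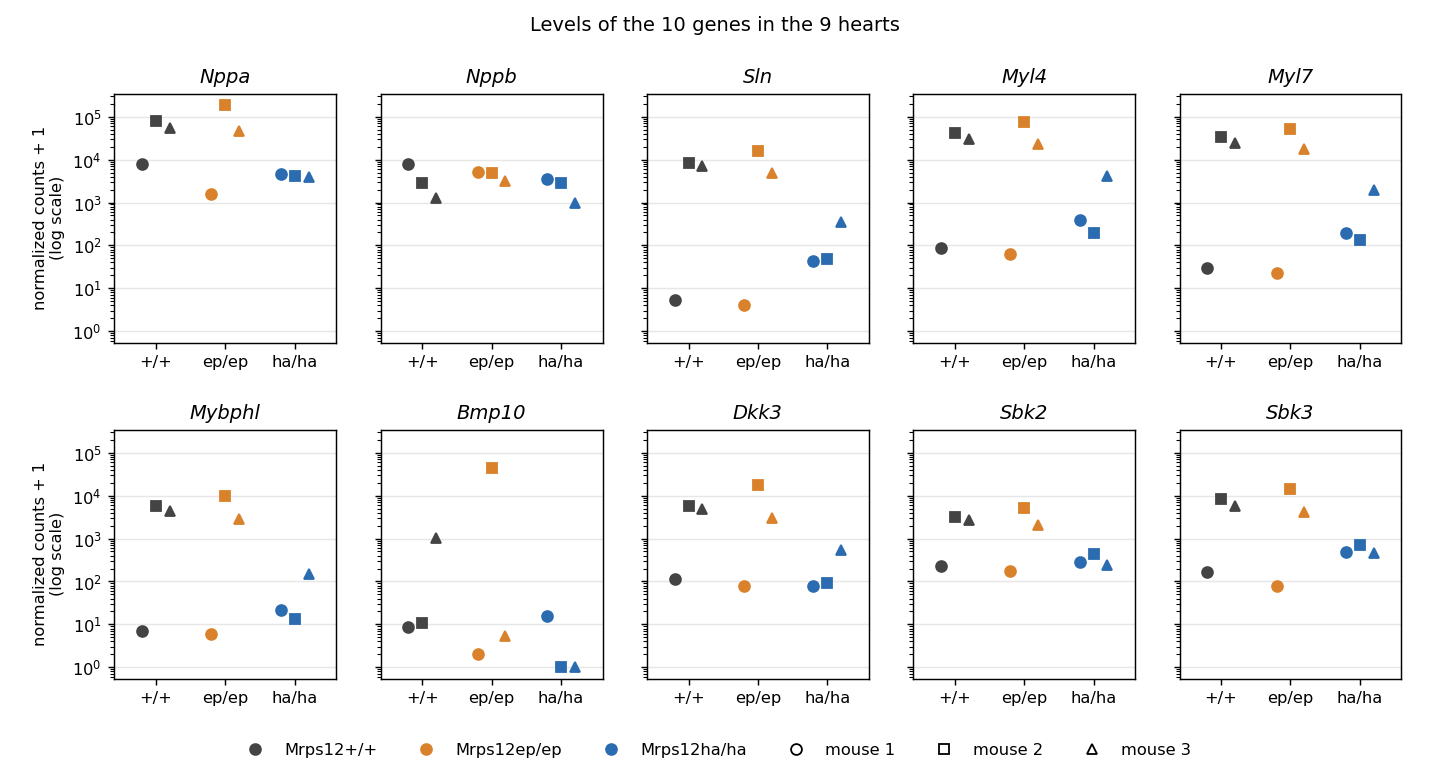
Normalized counts (log10 axis, with 1 added) of the 10 genes in each of the 9 hearts, with 1 point for each mouse, grouped by genotype. For 8 of the genes, *Mrps12+/+* mice 2 and 3 and *Mrps12ep/ep* mice 2 and 3 lie above the other 5 hearts, while *Nppb* varies 8.26-fold with no such gap.

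For 8 of the 10 genes, all but *Nppb* and *Bmp10*, the highest 4 hearts were *Mrps12+/+* mice 2 and 3 and *Mrps12ep/ep* mice 2 and 3. *Mrps12ep/ep* mouse 2 was the highest for 9 genes and *Mrps12ep/ep* mouse 1 the lowest for 7. The fourth highest heart stood 4.70 (*Sbk2*) to 18.9 (*Mybphl*) times above the fifth for those 8 genes, against 1.1 for *Nppb* and 1.22 for *Bmp10*. The summed values of the 10 genes took 0.05%, 0.588% and 0.425% of all normalized counts in *Mrps12+/+* mice 1, 2 and 3. They took 0.0212%, 1.47% and 0.335% in *Mrps12ep/ep* mice 1, 2 and 3, and 0.0293%, 0.0256% and 0.0382% in *Mrps12ha/ha* mice 1, 2 and 3. The source of the spread within a genotype is not given in the labels, and in RNA of a whole organ fewer cells of a type and less RNA per cell cannot be told apart. The part that the share of atrial muscle in each sample has in these values was not tested.

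On the log2 scale the SD over the 9 hearts, whatever their genotype, was 5.14 for *Bmp10*, 4.74 for *Sln*, 4.55 for *Myl7*, 4.54 for *Mybphl* and 4.14 for *Myl4*. It was 3.14 for *Dkk3*, 2.67 for *Sbk3*, 2.42 for *Nppa*, 1.95 for *Sbk2* and 0.96 for *Nppb*. For scale, the median SD of the 16057 tested genes was 0.31, 90% of them lay below 0.78 and 99% below 2.30, so that 8 of the 10 exceeded the 99% mark while *Sbk2* and *Nppb* did not. This spread is what chose the genes.

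Divided by the length of their exons, the order of the genes changed between a high and a low heart. In *Mrps12ep/ep* mouse 2 the levels per kilobase were 217482 normalized counts for *Nppa*, 87211 for *Myl7*, 16618 for *Myl4*, 12290 for *Sln* and 10033 for *Bmp10*. *Nppb*, at 6371 per kilobase, was below *Mybphl* (7821) and above *Dkk3* (5216) there. In *Mrps12ep/ep* mouse 1 *Nppb* led with 6525 per kilobase, followed by *Nppa* with 1842, and the next was *Sbk2* with 55.1. *Myl7* was at 36.9 per kilobase and *Sln* at 2.28 in that heart. *Nppb* thus had about the same level per kilobase in both hearts, while the rank order around it turned.

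The contractile genes kept close proportions to one another while their levels moved by over 1000-fold. *Myl4* was 1.22 to 2.97 times *Myl7* over the 9 hearts (median 1.5), *Sln* was 0.138 to 0.363 times *Myl7* (median 0.245) and *Mybphl* was 0.076 to 0.229 times *Myl7* (median 0.171). By genotype, *Mybphl* was 0.076 to 0.107 times *Myl7* in the *Mrps12ha/ha* hearts and 0.159 to 0.229 times in the others. *Mybphl* rested on 11 and 4 reads in *Mrps12ha/ha* mice 1 and 2, and on 7 and 5 in *Mrps12+/+* mouse 1 and *Mrps12ep/ep* mouse 1. The ratios of *Myl4* and *Sln* to *Myl7* overlapped between the genotypes, and no difference in a ratio was tested. In the low hearts these ratios rest on as few as 3 reads for *Sln* and 4 for *Mybphl*. Ratios with the other genes ran wider. *Dkk3* was 0.166 to 3.94 times *Myl7*, and *Sbk2* was 0.095 to 7.98 times *Myl7*. *Nppa* was 1.95 to 281 times *Myl7*, with 281 and 73.1 in *Mrps12+/+* mouse 1 and *Mrps12ep/ep* mouse 1, where *Myl7* was lowest, and 2.20 to 3.66 in the 4 high hearts. In the hearts in which *Myl7*, *Sln* and *Mybphl* were lowest, *Nppa*, *Sbk2*, *Sbk3* and *Dkk3* were thus less depleted than these.

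*Mrps12ha/ha* mouse 3 separated the genes further. Its *Myl4* was 10.5 and 21.3 times that of *Mrps12ha/ha* mice 1 and 2, its *Myl7* was 10.5 and 15.0 times, its *Sln* 8.13 and 7.12 times, its *Mybphl* 7.47 and 12.5 times, and its *Dkk3* 7.09 and 5.72 times. *Nppa* was 0.848 and 0.929 times that of the same hearts, *Sbk3* 0.927 and 0.655 times, *Sbk2* 0.853 and 0.560 times, and *Nppb* 0.266 and 0.332 times. The light chains and *Sln*, *Mybphl* and *Dkk3* were thus higher in this heart than in the others of its genotype, and the peptides and kinases were not. This heart also held the most erythroid mRNA, with summed haemoglobin and *Alas2* values of 1411965 against 91865 to 464387 in the other 8 hearts, and the part of blood in these values was not tested.

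The first comparison asks whether hearts with the hyper-accurate allele differed from *Mrps12+/+* hearts. Mean *Nppa* was 4215 ± 350 (SD, n = 3) in *Mrps12ha/ha* hearts and 47087 ± 35815 (SD, n = 3) in *Mrps12+/+* hearts. It was the only one of the 10 with every *Mrps12ha/ha* heart below every *Mrps12+/+* heart, which was so for 10.0% of all tested genes. The log2 difference was -2.95 (SE 1.5, 95% interval -6.31 to 0.41, adjusted p = 0.289 by limma with Benjamini-Hochberg adjustment over all tested genes), and it did not pass the threshold of 0.05. The exact permutation test, two-sided, gave p = 0.1, the smallest that 3 against 3 mice allow. Without *Mrps12ha/ha* mouse 2 the difference was -2.95 (adjusted p = 0.26 by limma).

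The other 9 genes also had lower mean log2 values in *Mrps12ha/ha* hearts, and none passed the test. The differences were -2.83 (SE 2.93) for *Myl4*, -2.98 (SE 3.24) for *Myl7*, -2.91 (SE 3.40) for *Sln* and -4.01 (SE 3.07) for *Mybphl*. They were -4.20 (SE 3.46) for *Bmp10*, -3.24 (SE 2.02) for *Dkk3*, -2.02 (SE 1.26) for *Sbk2*, -1.90 (SE 1.89) for *Sbk3* and -0.50 (SE 0.65) for *Nppb*, whose difference turned to 0.19 without *Mrps12+/+* mouse 1 and to 0.08 without *Mrps12ha/ha* mouse 3. Adjusted p-values ran from 0.289 to 0.66, all 10 intervals spanned 0, and 0 of the 10 had an unadjusted p under 0.05. Of all 16057 genes, 0.0311% passed the test (5 genes), 3168 had an unadjusted p under 0.05, and the median log2 difference was -0.02. The median of the 10 genes was -2.93. When a *Mrps12+/+* heart was left out it became -5.24 (mouse 1), -1.31 (mouse 2) or -1.48 (mouse 3), so the size of the difference rests on which *Mrps12+/+* hearts enter. It was -2.37 when *Mrps12ha/ha* mouse 2 was left out. In each of these fits 0 of 10 genes passed.

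Hearts with the error-prone allele were set against the same *Mrps12+/+* hearts, so this comparison is not independent of the first. The 10 genes had a median log2 difference of -0.01, with 4 higher and 6 lower, and a range from -0.42 (*Nppa*) to 0.78 (*Bmp10*). None passed the test (adjusted p = 1 for all by limma), none had an unadjusted p under 0.05, and 0 of 10 lay wholly below the *Mrps12+/+* hearts. Of all genes 0% passed, 271 had an unadjusted p under 0.05, and 3.64% lay wholly below. The widest 95% interval, that of *Bmp10*, ran from -7.00 to 8.57, and that of *Nppb* ran from -0.94 to 1.98, so that differences of several-fold in either direction were not detectable with 3 mice a group. The median turned with single hearts. Leaving out a *Mrps12+/+* heart made it -1.90 (mouse 1), 0.94 (mouse 2) or 1.16 (mouse 3), and leaving out a *Mrps12ep/ep* heart made it 2.71 (mouse 1), -1.94 (mouse 2) or -0.90 (mouse 3).

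Set against the *Mrps12ep/ep* hearts, the *Mrps12ha/ha* hearts were lower in mean log2 for all 10 genes, from -4.98 (*Bmp10*) to -1.02 (*Nppb*), with a median of -2.87. *Nppa* differed by -2.53 (SE 1.5, adjusted p = 0.371 by limma), the smallest adjusted p of the 10. None passed the test or had an unadjusted p under 0.05, and 0 of 10 lay wholly below the *Mrps12ep/ep* hearts, because *Mrps12ep/ep* mouse 1 was as low as or lower than the *Mrps12ha/ha* hearts for most of the genes. Of all genes 0.0249% passed (4 genes), 2879 had an unadjusted p under 0.05, 7.82% lay wholly below, and the median log2 difference was -0.02. Leaving out a *Mrps12ep/ep* heart moved the median of the 10 genes to -5.74 (mouse 1), -0.89 (mouse 2) or -1.67 (mouse 3), and leaving out *Mrps12ha/ha* mouse 2 moved it to -2.34, again with 0 of 10 called. Without *Mrps12ha/ha* mouse 2 the test called 3728 of all genes.

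**Figure D2:**
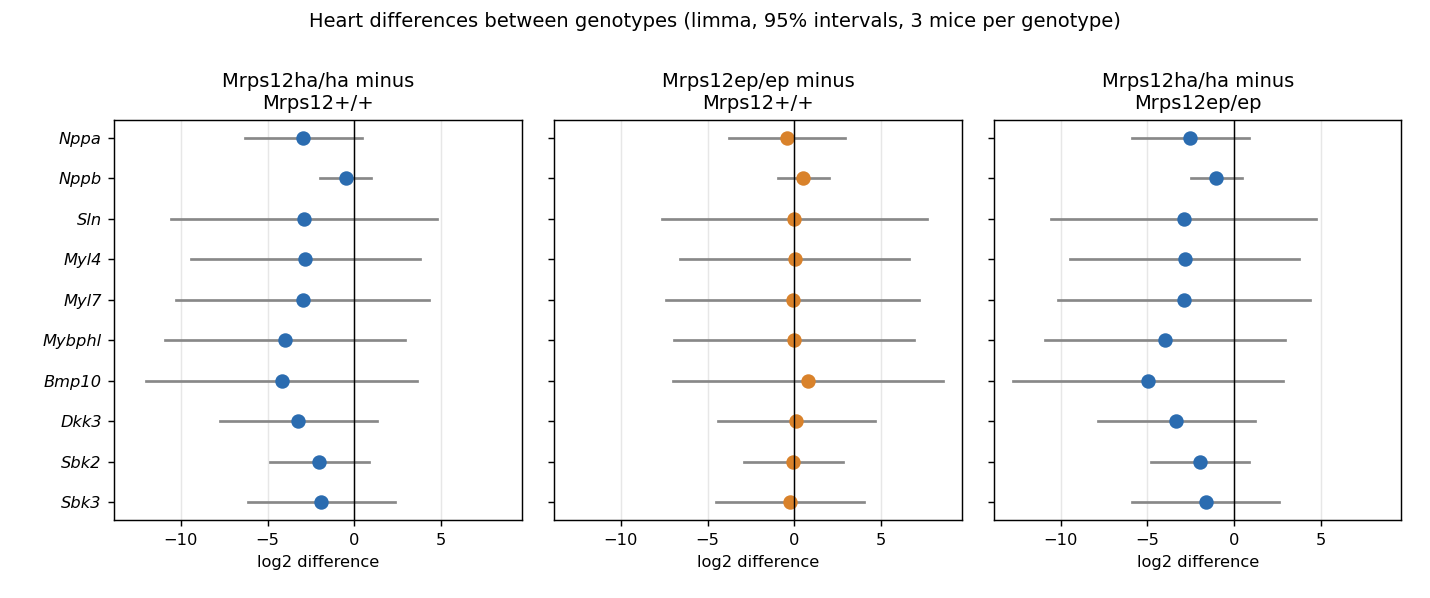
Log2 differences in the heart between genotypes for the 10 genes (points, first genotype minus second, from 3 mice each) with their 95% intervals from limma (lines). All 10 intervals span 0 in each of the 3 panels, and the points of the middle panel, *Mrps12ep/ep* against *Mrps12+/+*, lie between -0.42 and 0.78.

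A list of 16 other atrial genes held ion channels, transcription factors and secretory proteins, taken here as higher in atria than in ventricles. Its sum, to a large part *Pam*, moved over the hearts with the 10 genes. Its summed level was 48389, 130764 and 107837 in *Mrps12+/+* mice 1, 2 and 3, then 44543, 199078 and 95140 in the *Mrps12ep/ep* mice, and 24858, 50076 and 31639 in the *Mrps12ha/ha* mice. The same 4 hearts were the highest. *Pam* made up most of this sum in *Mrps12ep/ep* mouse 2, at 132304 of 199078. By Pearson's r with the mean log2 value of the 10 genes, 4 of the 16 reached 0.9, against 1.30% of all tested genes. The lowest r of the list was -0.41. *Fgf12*, a modulator of sodium channels, was at 8.6, 1833 and 1171 in *Mrps12+/+*, at 0, 2734 and 1168 in *Mrps12ep/ep*, and at 53.4, 24.2 and 62.9 in *Mrps12ha/ha*. *Pam*, which encodes the amidating enzyme abundant in the membranes of atrial granules, ran from 8606 (*Mrps12ha/ha* mouse 1) to 132304 (*Mrps12ep/ep* mouse 2), and *Tbx5*, a transcription factor of the atria and the conduction system, from 646.1 to 5567 in the same hearts. *Gja5*, the gap junction protein of atrial muscle, ran from 252.3 to 2171. *Kcna5* (1341 to 2703) and *Kcnk3* (6170 to 12388), which encode potassium channels, did not follow this order. Against *Mrps12+/+*, 14 of the 16 were lower and 2 higher in *Mrps12ha/ha* hearts (median log2 difference -1.08). None passed the test (smallest adjusted p = 0.214 by limma). An unadjusted p under 0.05 was found for 4 of the 16, all lower, against 19.7% of all tested genes. Between *Mrps12ep/ep* and *Mrps12+/+* hearts 13 were higher and 3 lower (median 0.12), and none passed.

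The genes that process, sense and clear natriuretic peptides did not follow *Nppa* as a group. Of 13 listed, 12 were tested, and none passed in any of the 3 comparisons. *Mrps12ha/ha* against *Mrps12+/+* hearts gave 5 higher and 7 lower, with a median of -0.21. *Corin*, the protease that cuts the *Nppa* precursor, lay between 7284 and 12705, and *Npr1*, the receptor for both peptides, between 1044 and 1676. *Npr3*, the clearance receptor, was the exception, at 976.5, 1580 and 1543 in *Mrps12+/+*, 574.6, 3758 and 1347 in *Mrps12ep/ep*, and 743.7, 1018 and 692.2 in *Mrps12ha/ha*, so that its highest 4 hearts were those of *Nppa*. *Nppc*, the gene of C-type natriuretic peptide, did not exceed 15.1.

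Around sarcolipin, 9 genes of the calcium pump and its regulators were tested, with 2 higher and 7 lower in *Mrps12ha/ha* than in *Mrps12+/+* hearts (median -0.37) and none past the test. *Atp2a2*, the calcium pump of heart muscle that sarcolipin inhibits, was at 172303 and 211652 in *Mrps12ha/ha* mice 1 and 3 and between 346966 and 471217 in the other 7 hearts. *Pln*, the ventricular inhibitor of the same pump, was at 126923 and 145842 in those 2 hearts and at 129379 in *Mrps12ep/ep* mouse 2, where *Sln* was highest, against 188275 to 245026 in the other 6. *Atp2a1*, the pump of fast skeletal muscle, ran from 3.0 to 332.2.

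For *Bmp10*, 14 genes of BMP9 and BMP10 signalling were tested, with 9 higher and 5 lower in *Mrps12ha/ha* than in *Mrps12+/+* hearts (median 0.19) and none past the test. The target genes *Id1* and *Id3* and the co-receptor *Eng* were highest in *Mrps12ha/ha* mice 1 and 3, where *Bmp10* was at 14.7 and 0. *Id1* was at 3004 and 3858 there against 1352 to 2024 elsewhere, and *Eng* at 15293 and 15534 against 8206 to 13112 elsewhere. Summed endothelial markers were also highest in those hearts, at 50878 and 44083 against 28301 to 40323 elsewhere. The part of endothelial cells in the *Id1*, *Id3* and *Eng* values was not tested. In *Mrps12ep/ep* mouse 2, with *Bmp10* at 45047, *Id1* was at 1354. The target *Id2* and the transducer *Smad9* were highest in that heart, at 773.6 and 184.4 against at most 493.1 and 132.1 elsewhere, and the inhibitor *Smad7*, at 1381, was second to *Mrps12ha/ha* mouse 3. For *Dkk3*, the relatives *Dkk1* and *Dkk4* did not exceed 2.0 in any heart, and *Dkk2* lay between 0 and 29.6. Of 4 tested genes of the Dickkopf family and its receptors, 1 was higher and 3 lower in *Mrps12ha/ha* than in *Mrps12+/+* hearts (median -0.30), with none past the test.

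The ventricular counterparts of the atrial light chains ran the other way. *Myl2*, the ventricular regulatory light chain, was lowest in *Mrps12ep/ep* mouse 2, at 162192, and between 263436 and 380504 in the other 8 hearts. *Myl3*, the ventricular essential light chain, was at 77548 in that heart and between 109353 and 169021 elsewhere. The summed level of 8 ventricular genes was lowest in the 4 hearts that were highest for the atrial genes, at 440367 and 412505 in *Mrps12+/+* mice 2 and 3 and at 275026 and 444767 in *Mrps12ep/ep* mice 2 and 3. It was 504232 and 553775 in mouse 1 of either genotype, and 548830 to 590447 in the *Mrps12ha/ha* hearts. *Myl2* and *Myl3* made up most of this sum, and not every gene of the list followed it. *Kcnd2*, a potassium channel, was highest in the same 4 hearts, at 891.2 and 895.5 in *Mrps12+/+* mice 2 and 3 and 672.1 and 751.0 in *Mrps12ep/ep* mice 2 and 3, and the transcription factor *Hey2* lay between 138.9 and 242.3 with another order. A list of 12 genes common to all heart muscle moved less, from 2421339 to 3763012. *Sbk1*, a relative of *Sbk2* and *Sbk3*, lay between 2031 and 4723, with its lowest value in *Mrps12ep/ep* mouse 2. Of 9 tested relatives of the 10 genes, 3 were higher and 6 lower in *Mrps12ha/ha* than in *Mrps12+/+* hearts (median -0.13), and none passed.

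Of 15 tested cardiac transcription factors, 2 were higher and 13 lower in *Mrps12ha/ha* than in *Mrps12+/+* hearts (median -0.50). None passed the test, and 1 of the higher and 9 of the lower ones had an unadjusted p under 0.05, against 19.7% of all tested genes. *Gata4* was at 2923 and 2895 in *Mrps12ha/ha* mice 1 and 3 and between 3871 and 5244 in the other 7 hearts, and *Nkx2-5* stayed between 1301 and 1833. Of 15 other genes of the fetal and hypertrophy programme, 3 were higher and 12 lower (median -0.65), and none passed. *Acta1*, the skeletal actin that rises with load on the heart, measured 37619, 20543 and 6961 in *Mrps12+/+*, 7820, 10462 and 6920 in *Mrps12ep/ep*, and 3282, 2978 and 3004 in *Mrps12ha/ha* (log2 difference -2.51, adjusted p = 0.153 by limma). Like *Nppb*, it was highest in *Mrps12+/+* mouse 1. Of 11 tested genes of the sinus node and conduction system, 6 were higher and 5 lower (median 0.06), and none passed.

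Markers of other cell types also moved with the 10 genes. Mesothelial markers, which mark the covering of the heart, had a summed level of 878.4, 1901 and 1227 in *Mrps12+/+*, 642.8, 3083 and 1409 in *Mrps12ep/ep*, and 526.4, 425.9 and 312.6 in *Mrps12ha/ha*, with the same 4 hearts highest. All 7 were lower in *Mrps12ha/ha* than in *Mrps12+/+* hearts (median -3.44, none past the test, smallest adjusted p = 0.0943 for *Lrrn4* by limma), and *Bnc1* was at 0 in the 3 *Mrps12ha/ha* hearts. Smooth muscle markers summed to 24052, 24896 and 30224 in *Mrps12+/+* mice 2 and 3 and *Mrps12ep/ep* mouse 2 and to 4461 to 11538 in the other 6 hearts, *Mrps12ep/ep* mouse 3 included. Adipocyte markers summed to 16985 in *Mrps12+/+* mouse 3, where the brown fat gene *Ucp1* was at 8557, to 2736 in *Mrps12ep/ep* mouse 2 and to 1133 to 1635 elsewhere. Hepatocyte markers ran against the 10 genes at their extremes, with a summed level of 124.1 in *Mrps12ep/ep* mouse 2 and 14368, 11116 and 14397 in *Mrps12+/+* mouse 1, *Mrps12ep/ep* mouse 1 and *Mrps12ha/ha* mouse 2. Fibroblast markers summed to 51664 and 40088 in *Mrps12+/+* mice 2 and 3, to 74104 and 45711 in *Mrps12ep/ep* mice 2 and 3 and to 36371 to 39882 in the other 5 hearts. The same 4 were thus the highest, but with no gap, as *Mrps12+/+* mouse 3 (40088) lay just above *Mrps12+/+* mouse 1 (39882). Endothelial markers summed to 28301 to 50878 and leukocyte markers to 3045 to 6884 over all hearts, while skeletal muscle markers did not exceed 90.7 and autonomic neuron markers 263.3. The part of these other tissues in the values of the 10 genes was not tested.

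The counts of the lists depended on *Mrps12ha/ha* mouse 2. Without it, a setting chosen for the lists after the data were seen, 26.9% of 16079 genes passed between *Mrps12ha/ha* and *Mrps12+/+* hearts and 23.2% between *Mrps12ha/ha* and *Mrps12ep/ep* hearts, while 0 of the 10 genes passed in either. Of the 15 cardiac transcription factors 11 passed against *Mrps12+/+* and 9 against *Mrps12ep/ep*, all lower, among them *Myocd*, a partner of serum response factor (-1.63, adjusted p = 0.00112 by limma against *Mrps12+/+*), *Tbx20* (-1.21) and *Gata4* (-0.67). Of the 16 other atrial genes 4 passed in each comparison, all lower, such as the muscarinic receptor *Chrm2* (-1.65 against *Mrps12+/+*). Of the 12 genes that process, sense and clear natriuretic peptides 6 passed against *Mrps12+/+*, 2 higher and 4 lower, and 5 against *Mrps12ep/ep*. Of the 9 genes around the calcium pump 5 passed in each, 1 higher and 4 lower, with *Atp2a2* at -1.16 against *Mrps12+/+*. Of 15 genes of BMP9 and BMP10 signalling then tested 7 passed against *Mrps12+/+*, 5 higher and 2 lower. Against *Mrps12ep/ep* 6 passed, 4 higher and 2 lower. Set against *Mrps12+/+*, *Id1* was at 1.25 and *Eng* at 0.84, while the receptor *Bmpr1a* was at -1.01. Of the 15 fetal and hypertrophy genes 7 passed against *Mrps12+/+*, 1 higher and 6 lower, *Acta1* (-2.48) among them, and 5 against *Mrps12ep/ep*, all lower. Of the marker lists, 4 of 7 mesothelial genes passed in each comparison, all lower, 5 of 5 erythroid genes in each, all higher, and 4 and 1 of 6 endothelial genes, all higher. In the remaining lists 0 to 3 genes passed. These counts rest on 2 *Mrps12ha/ha* hearts, which also held the most and the second most erythroid mRNA, and the part of blood in them was not tested.

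**Figure D3:**
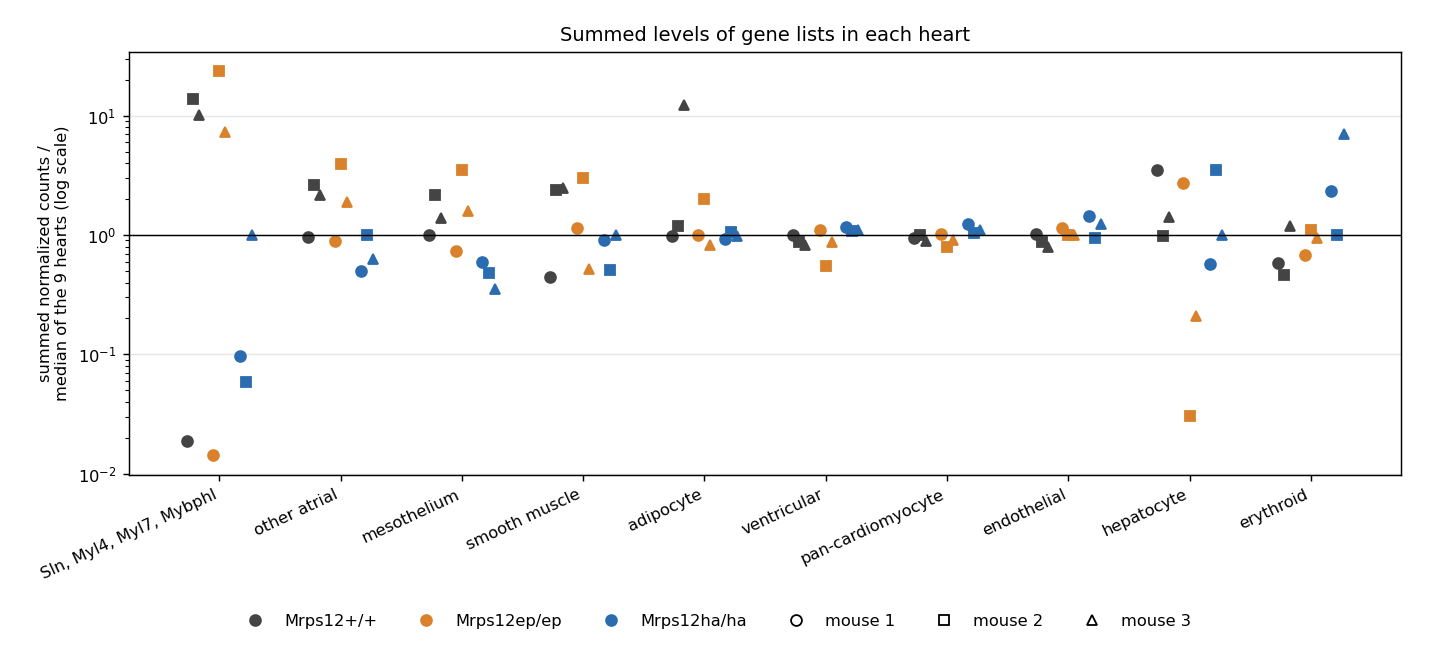
Summed normalized counts of gene lists in each heart, divided by the median of the 9 hearts (log axis), with colours for genotypes and shapes for mice. The sum of *Sln*, *Myl4*, *Myl7* and *Mybphl* varies most, and the other atrial and the mesothelial lists have the same 4 hearts on top. The ventricular and pan-cardiomyocyte lists stay closer to 1 than these, and both are lowest in *Mrps12ep/ep* mouse 2.

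By Pearson's r over the 9 hearts between a gene's log2 value and the mean log2 value of the 10 genes, the most alike among genes outside the set were *Podn* (0.991), *Cilp2* (0.987), *Stard10* (0.986), *Tmem163* (0.982) and *Olfm1* (0.982). They were followed by *Rxfp1* (0.980), *Abi3bp* (0.976), *Plekha7* (0.974), *Slc7a7* (0.974) and *Gng2* (0.972). *Podn*, a secreted proteoglycan, was at 563.2, 4200 and 3391 in *Mrps12+/+*, 505.2, 8062 and 2576 in *Mrps12ep/ep*, and 1031, 746.0 and 999.3 in *Mrps12ha/ha* (Spearman's rho 0.967, r 0.987 without the 2 hearts farthest from the median). *Tmem163*, a zinc transporter, gave 0.9, 1012 and 653.4 in *Mrps12+/+*, 0, 2023 and 549.4 in *Mrps12ep/ep*, and 11, 9.1 and 28.4 in *Mrps12ha/ha*. These r values are a description over few hearts, with no p. On the mean of the 10 genes the hearts fell into separate clusters, 5 hearts from 5.91 to 8.63 and 4 hearts from 11.65 to 14.47 on the log2 scale, so that r mainly measures the gap between the clusters, and neither holds enough hearts for an r of its own. Of the 16057 tested genes, 209 (1.30%) had an r of at least 0.9 and 31 (0.193%) an r of at most -0.9, and the median r was 0.01.

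The most opposed genes were *Lsm10* (-0.968), *Pebp1* (-0.967), *G6pc3* (-0.953), *Mien1* (-0.952) and *Mrpl36* (-0.948). Their range was small. *Lsm10*, a part of the particle that processes histone mRNAs, lay between 256.3 and 365.5, and *Pebp1*, an inhibitor of RAF kinase, between 6186 and 9034. Among the 10 genes themselves, r with the mean of the other 9 was 0.955 to 0.978 for 8 of them, 0.667 for *Bmp10* and -0.274 for *Nppb*.

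**Figure D4:**
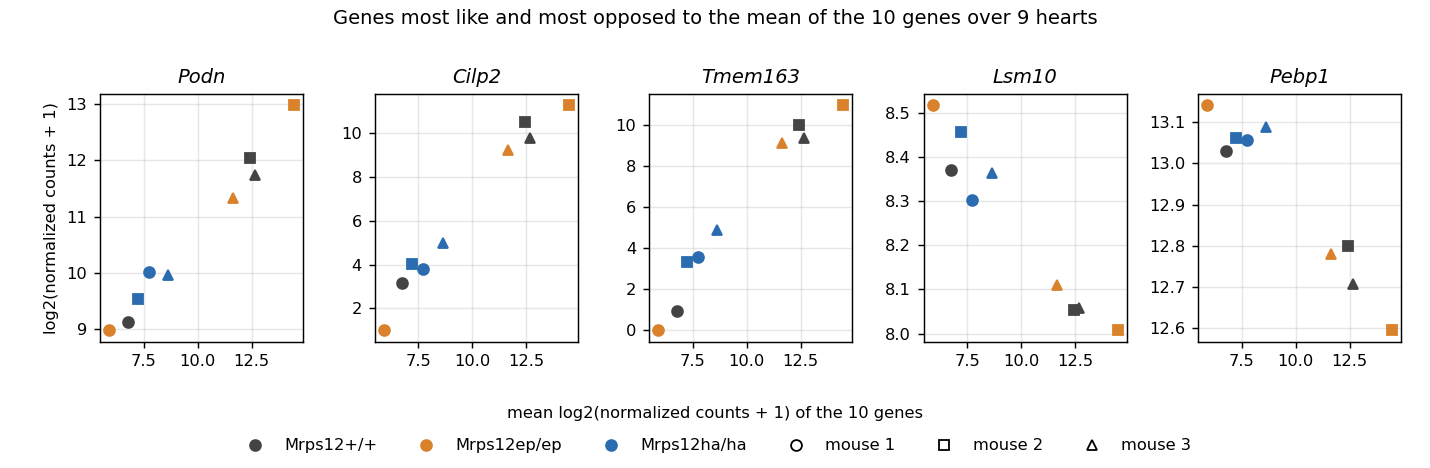
Log2 values (normalized counts with 1 added) of 3 genes most like and 2 most opposed to the mean log2 value of the 10 genes, with 1 point for each of the 9 hearts. The hearts form a group of 5 at a mean of 5.91 to 8.63 and a group of 4 at 11.65 to 14.47, and *Lsm10* and *Pebp1* change over a much smaller range than *Podn*, *Cilp2* and *Tmem163*.

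In the liver, whose values were normalized on their own, most of the 10 genes were at or near 0. *Nppa* reached at most 1.6 normalized counts in any liver, *Nppb* 2.2, *Mybphl* 0.7 and *Sbk3* 2.0, which are 0 to 3 reads. Only 5 of the 10, *Sln*, *Myl4*, *Myl7*, *Bmp10* and *Dkk3*, passed the filter on the mean. *Bmp10*, which liver stellate cells also make, was at 204.3, 214.3 and 125.6 in *Mrps12+/+*, 188.1, 182.9 and 248.6 in *Mrps12ep/ep*, and 190.4, 154.9 and 154.9 in *Mrps12ha/ha*. *Gdf2*, its liver-made relative BMP9, lay between 753.8 and 1142 in the same livers. *Dkk3* was at 119.6, 91.4 and 103.5 in *Mrps12+/+*, 71.3, 78.8 and 88.8 in *Mrps12ep/ep*, and 90.4, 60.7 and 75.9 in *Mrps12ha/ha*, and all livers of either mutant lay below all *Mrps12+/+* livers, as was so for 9.81% of tested genes in *Mrps12ha/ha* and 6.28% in *Mrps12ep/ep* livers.

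*Sln* in the liver came from 2 livers. It was at 30.8 and 120.5 in *Mrps12+/+* mice 1 and 2, at 2.4 in *Mrps12ha/ha* mouse 1 and at 0 in the other 6 livers, and *Sbk2* was at 23.1 and 38.0 in the same 2 *Mrps12+/+* livers and at 0 in the rest. These 2 livers also held skeletal muscle mRNA. *Myh4*, a myosin of fast skeletal muscle, was at 6181 and 3957 in them and at most 8.6 in the other 7, and *Atp2a1* was at 4464 and 6144 against at most 33.3. The part of skeletal muscle in the *Sln* and *Sbk2* values was not tested. *Myl4* measured 37.1, 29.1 and 25.3 in *Mrps12+/+*, 24.3, 70.1 and 46.6 in *Mrps12ep/ep*, and 83.3, 43.7 and 37.4 in *Mrps12ha/ha*, and *Myl7* lay between 2.7 and 18.9.

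None of the 5 tested genes passed between genotypes in the liver, where 0.00653% of the 15314 tested genes (1 gene) passed in each of the 3 comparisons. Against *Mrps12+/+*, *Mrps12ha/ha* livers differed in log2 by 0.75 for *Myl4* (SE 0.45, adjusted p = 0.48 by limma), by -0.47 for *Dkk3* (SE 0.23, adjusted p = 0.393) and by -3.38 for *Sln*. Every *Mrps12ha/ha* liver was above every *Mrps12+/+* liver for *Myl4*, as for 10.0% of tested genes, but the nearest of them, at 37.4 and 37.1, were less than 1 read apart. The difference of *Sln* between *Mrps12ep/ep* and *Mrps12+/+* livers was -3.97 (SE 1.57, adjusted p = 0.48 by limma), and it was the only one of the 5 with an unadjusted p under 0.05 in that comparison, against 9.74% of all tested genes. Without *Mrps12+/+* mouse 3 the same gene passed (adjusted p = 0.0402 by limma), as did 0.470% of the 15306 genes then tested (72 genes). *Sln* passed the filter on the mean only through 2 *Mrps12+/+* livers, at 30.8 and 120.5, as the others held at most 2.4. The fit without *Mrps12+/+* mouse 3 kept just these 2 as *Mrps12+/+* livers. The p-values of *Sln* thus rest on the values that let the gene in and give no support for a difference between genotypes. These were also the 2 livers with skeletal muscle mRNA, whose part in these values was not tested.

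**Figure D5:**
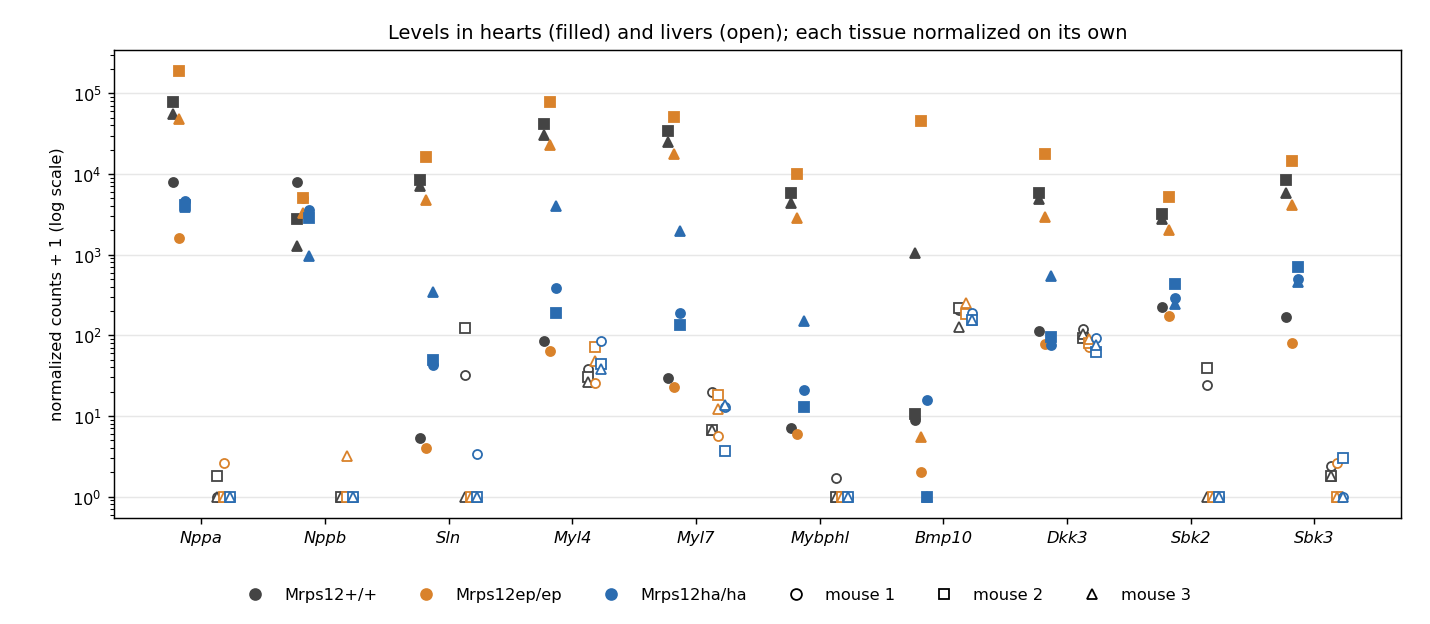
Normalized counts (log axis, with 1 added) of the 10 genes in each heart (filled) and liver (open), with colours for genotypes and shapes for mice; the tissues were normalized separately. *Nppa*, *Nppb*, *Mybphl* and *Sbk3* do not exceed 2.2 in any liver, while *Bmp10* lies between 125.6 and 248.6 in the livers and between 0 and 45047 in the hearts.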

How the data were processed

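RNA was measured by strand-specific paired-end sequencing in 9 hearts and 9 livers, 3 mice a genotype, with 3 technical libraries a sample (54 in all). Per the labels and methods, the authors trimmed reads with Trim Galore 0.4.1 and cutadapt 1.18, checked them with FastQC 0.11.8, quantified GENCODE vM21 transcripts (GRCm38.p6) with Salmon 1.1.0, and deposited counts normalized by DESeq2 within each tissue, without mitochondrial transcripts, as 1 column for each mouse and tissue. Each such column was taken as the mouse of the number in its name. The scaling makes levels relative to the other genes of a sample, and they are not comparable between tissues. Columns of the authors' own comparisons (fold changes and p-values) were not used.

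Normalized counts, with 1 added, were put on a log2 scale and fitted here with limma 3.58.1 (lmFit, eBayes with a trend) in R 4.3.3, all 3 genotypes of a tissue in 1 fit without a block, for genes with a mean of at least 10 (16057 in the heart, 15314 in the liver). The p-values were two-sided, with Benjamini-Hochberg adjustment over these genes and a threshold of 0.05. They set the difference between genotype means against the spread between mice. Exact permutation tests used all splits of 3 against 3. In every column 100% of the values up to 20 reads were whole multiples of 1 step within 0.1 read, which gave the depth, the floor of 3 reads and counting intervals, which cover counting error only. No count test was run on these reads. Coordinates and exon lengths are those of GENCODE on GRCm38, and promoter windows those of RefSeq on GRCm38.p6, with both strands searched. Python 3.11.15, pandas 2.3.3, numpy 2.4.6, scipy 1.17.1 and matplotlib 3.10.9 were used.

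The 10 genes and the lists were chosen with earlier results of these data known. Named genes were the 10, genes of the lists, some of them (such as *Gata4*, *Nkx2-5*, *Kcna5*, *Kcnk3*, *Npr1*, *Kcnd2* and *Hey2*) chosen after their values were seen and not for the highest level or widest spread, and the 10 most and 5 least alike by Pearson's r among genes with a mean of at least 100. Alternatives covered the pseudocount, filter, normalization, genotypes in the fit, weights, replicate block and leaving out each mouse.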

Additional observations from a re-analysis of the deposited data

Results flagged for a closer look

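*Myl4* differed in direction between the tissues. The log2 difference between *Mrps12ha/ha* and *Mrps12+/+* mice was -2.83 in the heart (adjusted p = 0.581 by limma) and 0.75 in the liver (adjusted p = 0.48 by limma). Every *Mrps12ha/ha* heart lay below the *Mrps12+/+* mean log2 value and every *Mrps12ha/ha* liver above it, though *Mrps12+/+* mouse 1, with 84.4 normalized counts in the heart, was below all *Mrps12ha/ha* hearts. The levels themselves were far apart, at 63.4 to 77059 in hearts and 24.3 to 83.3 in livers. The difference between the tissues was not tested.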

How the results depend on the processing

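In the heart, 0 of the 10 genes passed under each of the 18 alternatives run in each of the 3 comparisons. The smallest adjusted p was 0.052 (*Mrps12ha/ha* against *Mrps12+/+*) and 0.0564 (against *Mrps12ep/ep*), both for *Nppa* with array weights. Unadjusted p-values moved with single hearts. Without *Mrps12ep/ep* replicate 1, 8 of 10 were under 0.05 by limma for *Mrps12ha/ha* against *Mrps12ep/ep*, as were 3148 of all 16085 genes. Without *Mrps12+/+* replicate 1, 4 of 10 were for *Mrps12ha/ha* against *Mrps12+/+*, with 2447 of all 16077. With the replicate block it was 3 of 10 in each of these comparisons. Leaving out single mice moved the median log2 difference of the 10 genes from -5.24 to -1.31, from -1.94 to 2.71 for *Mrps12ep/ep* against *Mrps12+/+*, and from -5.74 to -0.89 for *Mrps12ha/ha* against *Mrps12ep/ep*. The other settings kept it within -3.19 to -2.86, -0.07 to 0.08 and -2.93 to -2.82. *Nppb* turned from -0.50 to 0.19 without *Mrps12+/+* replicate 1 and to 0.08 without *Mrps12ha/ha* replicate 3 (range -1.13 to 0.19 over all mice left out). In the liver 0 to 1 of the 5 tested genes passed for *Mrps12ep/ep* against *Mrps12+/+* when single mice were left out (*Sln*, without *Mrps12+/+* replicate 3), and 0 in the other 2 comparisons. *Sln* passed the filter only through the 2 *Mrps12+/+* livers kept in that fit, so this is no support for a difference. Counts over all genes moved more. Between *Mrps12ha/ha* and *Mrps12+/+* hearts 5 genes passed, against 5573 with array weights and 3 to 4320 with single mice left out (4320 without *Mrps12ha/ha* replicate 2, 3 without *Mrps12+/+* replicate 1 or *Mrps12ep/ep* replicate 3). Between *Mrps12ha/ha* and *Mrps12ep/ep* hearts 4 passed, against 6314 and 3 to 3728, and between *Mrps12ep/ep* and *Mrps12+/+* hearts 0, against 0 to 3. In the livers 1 gene passed in each comparison, against 0 to 92, 1 to 72 and 0 to 11 with single mice left out. Of the 10 genes most like the set, 3 remained with Spearman's rho, 7 with a pseudocount of 8 and 6 to 9 with single mice left out. The cause of these moves was not tested. The edgeR alternative on reads recovered from the values was not run.

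The labels do not say whether same-numbered mice were paired, and the main fit took them as unpaired. Deviations of same-numbered hearts from their group means were correlated. Between *Mrps12ep/ep* and *Mrps12+/+* hearts r was 0.58 for mice 1, 0.41 for mice 2 and -0.07 for mice 3. In the pairs with *Mrps12ha/ha* hearts r ran from -0.23 to 0.09. With the replicate block 0 of the 10 genes passed in the heart (smallest adjusted p = 0.22 by limma) and 0 of 5 in the liver (0.35), and over all genes 3 passed between *Mrps12ha/ha* and *Mrps12+/+* hearts and 7, 9 and 6 in the liver comparisons.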
